A study of Homo sapiens with 16 samples.

Results

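The Krüppel-like factor (KLF) genes KLF2, KLF4, KLF5, KLF6, KLF7, KLF9, KLF10, KLF11, KLF13 and KLF16 were followed in pancreatic cancer cells treated with gemcitabine, genistein or both. They are 10 of the 17 genes with a KLF symbol in the deposited gene expression table, which lists 63677 genes, and they were picked by name because KLF6 moved in opposite directions in the cell lines used. The KLF6 responses are therefore given as a description without a test. The other 9 genes were tested, where their counts allowed, together with every gene that passed a filter on low counts. The samples were cultures of MiaPaCa2 and PANC1, established human lines from pancreatic ductal tumors. Each line was kept as a control, here called untreated, or was treated for 24 hours with 40 nM gemcitabine, 50 µM genistein or the combination. There were 2 replicates a group and 16 libraries in all. The study's methods name DMSO as the solvent of genistein, and the labels do not say whether the controls received it. The cells carry no engineered allele, all groups grew in DMEM with serum, and each line stands for 1 tumor.

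Gemcitabine is a deoxycytidine analog that is built into DNA and stalls replication, and genistein is a soy isoflavone known as a tyrosine kinase inhibitor. KLF proteins are transcription factors with a conserved zinc finger domain at the carboxyl end, which binds GC-rich and CACCC-type sequences. KLF2, KLF4, KLF5, KLF6 and KLF7 belong to the branch of the family that recruits acetyltransferases such as p300 and mostly activates genes. KLF9, KLF10, KLF11, KLF13 and KLF16 share a motif that binds the corepressor SIN3A. In the pancreas, KLF4 and KLF5 are known for roles in ductal neoplasia, and KLF10 and KLF11 were first found as genes induced by TGF-β.

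The libraries held between 12943482 and 31991860 counted reads, and their median was 16059396.5. Levels are given as CPM, counts scaled to library sizes after TMM correction, which compare 1 gene between libraries, and as FPKM, which is also scaled to length and compares genes with each other. The keratins KRT8 and KRT18 and the mesenchymal marker VIM were abundant in both lines, with KRT18 counts from 3900 to 12777. EPCAM had 0 counts in every MiaPaCa2 library and CDH1 at most 2, while the EPCAM group means of PANC1 were 7.74 to 11.1 FPKM. Of the 11 markers of acinar, islet, endothelial and immune cells, PRSS1, CPA1, AMY2A, INS, GCG and PECAM1 had 0 counts in all libraries, VWF, PTPRC and CD3E had at most 4, and CDH5 and CD14 had group means of up to 1.47 and 4.52 FPKM, both in the MiaPaCa2 controls. Within MiaPaCa2, the CDH5 mean was 1.47 FPKM in the controls, 1.04 with gemcitabine, 0.515 with genistein and 0.409 with both drugs, and the CD14 mean was 4.52, 3.88, 1.48 and 2.84 FPKM in the same order. With both drugs, the duct keratin gene KRT19 fell by 1.70 in MiaPaCa2 (SE 0.130, adjusted p = 8.1e-07, limma-voom) and by 1.26 in PANC1 (SE 0.178, adjusted p = 0.00326) on the log2 scale. VIM fell by 0.71 (SE 0.0619, adjusted p = 2.09e-06) and by 1.04 (SE 0.0655, adjusted p = 0.000219). With gemcitabine alone, KRT19 fell by 1.40 and 0.83 and VIM by 0.66 and 0.60 in MiaPaCa2 and PANC1. Other epithelial markers did not all follow KRT19. With both drugs in MiaPaCa2, KRT8 and KRT18 changed by -0.20 and -0.09 on the log2 scale and did not pass (adjusted p = 0.193 and 0.467, limma-voom). In PANC1 with both drugs, KRT8 (-0.77) and CDH1 (-1.78) passed, and KRT18, EPCAM and KRT7 did not. With genistein alone in MiaPaCa2, KRT18 rose by 0.42 (adjusted p = 0.0182). The part of these markers in the results was not tested.

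The letters that KLF proteins bind were looked for before the start sites of the KLF genes themselves. RefSeq start sites (build GRCh38.p14, a later build than the GRCh37 of the expression files) were found for 9 of the 10 genes, all but KLF10, with 14 start sites among them. In the 250 bases before the start, the GC box GGGCGG, read on both strands, was present for 8 of the 9 genes at 1 or more start sites, and the CACCC box, read on both strands, for 4 of the 9. Counted by start site, 9 of the 14 windows held the GC box and 6 of the 14 held CACCC. Over all 35116 promoters of the table, 42.6% held the GC box and 54.7% held CACCC in a window of the same length. The windows of KLF4, KLF5, KLF6 and KLF11 are shown as examples from the genes whose drug responses are set between the lines in the results, and they were chosen after the values were seen. The KLF16 window, which is not shown, held 7 GC boxes. Capitals mark GC boxes and CACCC boxes on either strand, and for KLF5 and KLF11 the window of the more downstream start site is given. They are chr9:107489770-107490019 on the minus strand for KLF4, chr13:73058755-73059004 on the plus strand for KLF5, chr10:3785210-3785459 on the minus strand for KLF6 and chr2:10043971-10044220 on the plus strand for KLF11.
KLF4: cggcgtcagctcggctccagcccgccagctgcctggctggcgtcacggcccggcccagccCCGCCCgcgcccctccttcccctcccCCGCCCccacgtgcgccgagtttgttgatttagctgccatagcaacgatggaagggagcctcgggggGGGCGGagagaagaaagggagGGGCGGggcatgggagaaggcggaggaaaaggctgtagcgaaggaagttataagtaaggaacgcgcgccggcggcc
KLF5: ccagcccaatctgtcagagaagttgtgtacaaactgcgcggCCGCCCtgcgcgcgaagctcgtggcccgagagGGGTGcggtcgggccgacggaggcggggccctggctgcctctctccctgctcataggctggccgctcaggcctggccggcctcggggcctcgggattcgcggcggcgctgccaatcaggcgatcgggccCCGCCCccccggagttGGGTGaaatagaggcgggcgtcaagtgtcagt
KLF6: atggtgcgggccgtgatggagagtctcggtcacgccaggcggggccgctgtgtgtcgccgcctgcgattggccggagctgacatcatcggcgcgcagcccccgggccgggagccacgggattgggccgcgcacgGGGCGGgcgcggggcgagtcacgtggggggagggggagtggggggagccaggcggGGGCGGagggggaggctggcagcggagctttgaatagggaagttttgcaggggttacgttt
KLF11: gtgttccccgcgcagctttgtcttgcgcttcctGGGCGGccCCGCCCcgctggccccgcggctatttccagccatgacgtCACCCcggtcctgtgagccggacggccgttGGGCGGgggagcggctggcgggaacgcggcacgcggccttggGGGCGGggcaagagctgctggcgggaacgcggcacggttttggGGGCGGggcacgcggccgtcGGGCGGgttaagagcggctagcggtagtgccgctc
KLF4 held 4 GC boxes and 0 CACCC boxes. KLF5 held 2 of each. KLF6 held 2 GC boxes and 0 CACCC boxes, and KLF11 held 6 GC boxes and 1 CACCC box. The E-box CACGTG, found in 6.34% of all promoters, was present before KLF4 and before KLF6. The KLF11 window also held 2 overlapping matches to TGACGT, found in 7.1% of all promoters. No AP-1 sequence (TGANTCA) was found in these 4 windows. A match of letters is a description of these windows and does not show binding.

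In untreated cells, KLF6 was the most abundant member per length in both lines, and 7 of the other 9 genes differed between the lines. KLF6 (ENSG00000067082, GRCh37 chr10:3818188-3827473, minus strand), a widely expressed factor known as a tumor suppressor and an early response gene, had 50.2 and 50.6 FPKM in MiaPaCa2 and 43.2 and 48.5 FPKM in PANC1. This comparison used no treated library and was tested, but its control libraries also entered the responses by which KLF6 was picked. The log2 fold change of PANC1 over MiaPaCa2 was -0.18 (SE 0.0887, adjusted p = 0.0938, limma-voom). Because of that choice, no conclusion on the basal levels of KLF6 is drawn from this p. Per length, the order of the controls in MiaPaCa2 was KLF6, KLF16 with a mean of 12.5 FPKM, KLF2 with 12.4, KLF10 with 10.7, KLF13 with 9.03, KLF4 with 5.24, KLF11 with 1.97, KLF9 with 1.93, KLF5 with 0.591 and KLF7 with 0.0736. Of these neighbours, the replicate ranges of KLF16 and KLF2 and those of KLF11 and KLF9 overlapped. In PANC1, KLF6 was followed by KLF10 with a mean of 17.7 FPKM, KLF13 with 17.6, KLF16 with 17.2, KLF11 with 5.92 and KLF7 with 2.60, and the ranges of KLF10, KLF13 and KLF16 overlapped. KLF4, KLF5 and KLF2 had means of 1.38, 1.30 and 1.17 FPKM there with overlapping ranges, and KLF9 was last with 0.483.

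**Figure D1:**
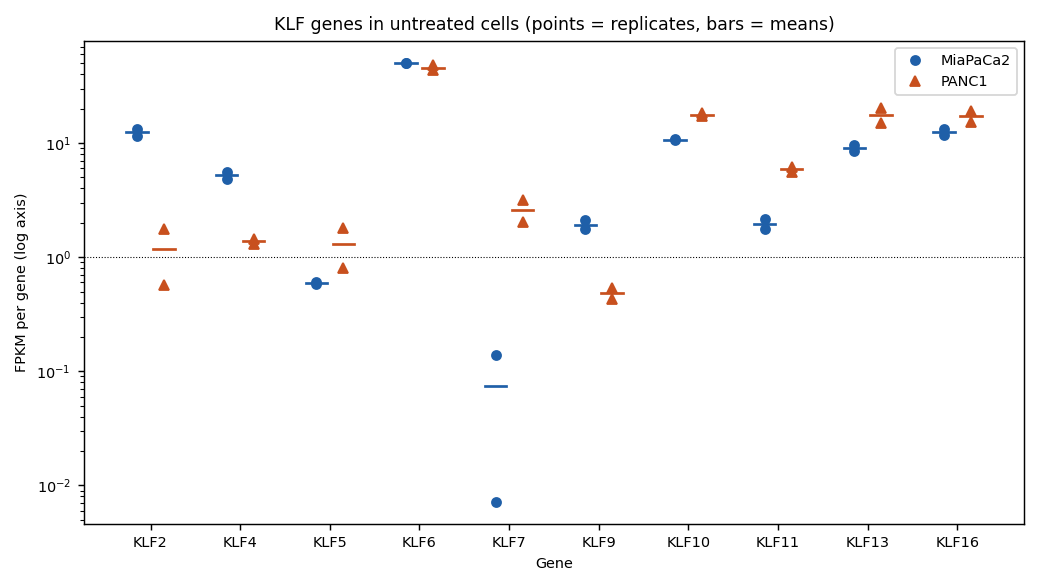
FPKM per gene on a log axis for the 10 KLF genes in untreated MiaPaCa2 (circles) and PANC1 (triangles), with points for the 2 replicates, short bars for means and a dotted line at 1 FPKM. KLF6 lies near 50 FPKM in both lines, KLF2, KLF4 and KLF9 are higher in MiaPaCa2, and KLF7 is near the bottom of the axis in MiaPaCa2.

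KLF2, KLF4 and KLF9 were lower in PANC1. KLF2 (ENSG00000127528, chr19:16435637-16439496, plus strand), a factor of quiescent endothelial and T cells, had 20.7 and 22.1 CPM in the MiaPaCa2 controls and 1.20 and 1.13 in the PANC1 controls. This was an 18.2-fold lower level (log2 fold change -4.19, SE 0.239, adjusted p = 6.59e-09). KLF4 (ENSG00000136826, chr9:110247133-110252763, minus strand), one of the reprogramming factors and a regulator of epithelial differentiation, had 15.1 and 17.7 CPM against 4.41 and 3.82 (log2 fold change -2.001, SE 0.171, adjusted p = 2.83e-07). KLF9 (ENSG00000119138, chr9:72999520-73029573, minus strand), which is induced by glucocorticoids in many tissues, had 13.6 and 11.3 CPM against 2.86 and 3.25 (log2 fold change -2.02, SE 0.197, adjusted p = 1.09e-06).

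KLF7, KLF10, KLF11 and KLF13 were higher in PANC1. KLF7 (ENSG00000118263, chr2:207938861-208038580, minus strand), best known from neuronal development, had 231 and 453 counts in the PANC1 controls and 3 and 1 in the MiaPaCa2 controls. The ratio of the pooled CPM was 97.2, with an exact 95% counting interval from 37.8 to 358, which covers counting error only. No MiaPaCa2 library of any treatment held more than 3 KLF7 counts. KLF10 (ENSG00000155090, chr8:103661012-103667953, minus strand) had 38.9 and 39.0 CPM in MiaPaCa2 and 64.4 and 62.6 in PANC1 (log2 fold change 0.70, SE 0.101, adjusted p = 3.9e-05). KLF11 (ENSG00000172059, chr2:10182976-10194963, plus strand), which is also known from inherited diabetes, had 8.63 and 8.50 CPM against 27.6 and 28.0 (log2 fold change 1.69, SE 0.118, adjusted p = 4.22e-08). KLF13 (ENSG00000169926, chr15:31619038-31727868, plus strand), an activator of the chemokine gene CCL5 in T cells, had 49.9 and 50.2 CPM against 111.5 and 94.2 (log2 fold change 1.02, SE 0.105, adjusted p = 1.66e-06).

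KLF5 and KLF16 were not separated between the untreated lines. KLF5 (ENSG00000102554, chr13:73629114-73651679, plus strand), which supports proliferation of epithelial cells, had 1.22 and 1.07 CPM in MiaPaCa2 and 1.504 and 1.03 in PANC1 (log2 fold change 0.05, SE 0.323, adjusted p = 0.894). KLF16 (ENSG00000129911, chr19:1852398-1863578, minus strand), first described as a regulator of dopamine receptor genes, had 41.5 and 46.0 CPM against 68.7 and 49.5 (log2 fold change 0.40, SE 0.242, adjusted p = 0.165). Of all genes tested, 52.2% met the criteria in this comparison, so 7 of 9 members called stands against a high background. Under GC correction, 9 of the 10 genes, KLF6 included, were called, where 10270 of all 17863 genes were. With the replicate block added, 8 were called, where 10002 of all genes were. Not all of KLF5, KLF6 and KLF16 therefore stayed uncalled under that correction. Calling a gene took 3 criteria: its adjusted p did not exceed 0.05, its log2 fold change was 0.4 or more in size, and its mean was above 1 FPKM in the treated group or, here, in either line. Antisense genes overlap 9.749% of the exon bases of KLF4, 9.055% of KLF11 and 16.285% of KLF16, and the strand setting of the counting is not given in the sources used here.

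KLF6 fell with gemcitabine in MiaPaCa2 and rose with it in PANC1, which is the pattern the genes were picked for. In MiaPaCa2, KLF6 had 187 and 181 CPM in the controls, 68.1 and 63.0 with gemcitabine, 148 and 154 with genistein and 73.0 and 60.8 with both drugs. The gemcitabine and combination libraries lay apart from the controls and from the genistein libraries, and they overlapped each other. In PANC1, KLF6 had 155 and 169 CPM in the controls, 304 and 313 with gemcitabine, 101.2 and 112.8 with genistein and 138 and 137 with both drugs. There, the gemcitabine libraries were the highest of all 16, the genistein libraries were the lowest of the line, and the combination lay between the genistein libraries and the controls. Before treatment, KLF6 differed between the lines by -0.18 on the log2 scale, PANC1 over MiaPaCa2. Its highest and lowest group means over the study, 308 and 65.6 CPM, were both under gemcitabine. Treated libraries apart from both controls are common in these data. Of all genes tested in MiaPaCa2, 74% were so apart with gemcitabine, 60% with genistein and 75.5% with both drugs. In PANC1 the shares were 53%, 48.6% and 51.8%. They are the background for each later statement on libraries above or below the controls.

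On the log2 scale, the KLF6 change with gemcitabine was -1.54 (SE 0.103) in MiaPaCa2, 2.91-fold lower, and 0.97 (SE 0.0960) in PANC1, 1.96-fold higher. The difference of these responses, PANC1 minus MiaPaCa2, was 2.41 (SE 0.130). With genistein alone, KLF6 was lower in both lines, by -0.30 (SE 0.0953) and -0.57 (SE 0.112) on the log2 scale. With both drugs, the log2 change was -1.53 (SE 0.104) in MiaPaCa2 and -0.22 (SE 0.106) in PANC1. Set against gemcitabine alone, adding genistein gave a log2 difference of 0.01 (SE 0.111) in MiaPaCa2 and of -1.19 (SE 0.102) in PANC1. Set against genistein alone, adding gemcitabine gave -1.23 (SE 0.104) and 0.34 (SE 0.118). These values used the libraries by which KLF6 was picked and carry no p; the combination value of PANC1 ranged from -0.35 to 0.0037 over the other processing choices.

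**Figure D2:**
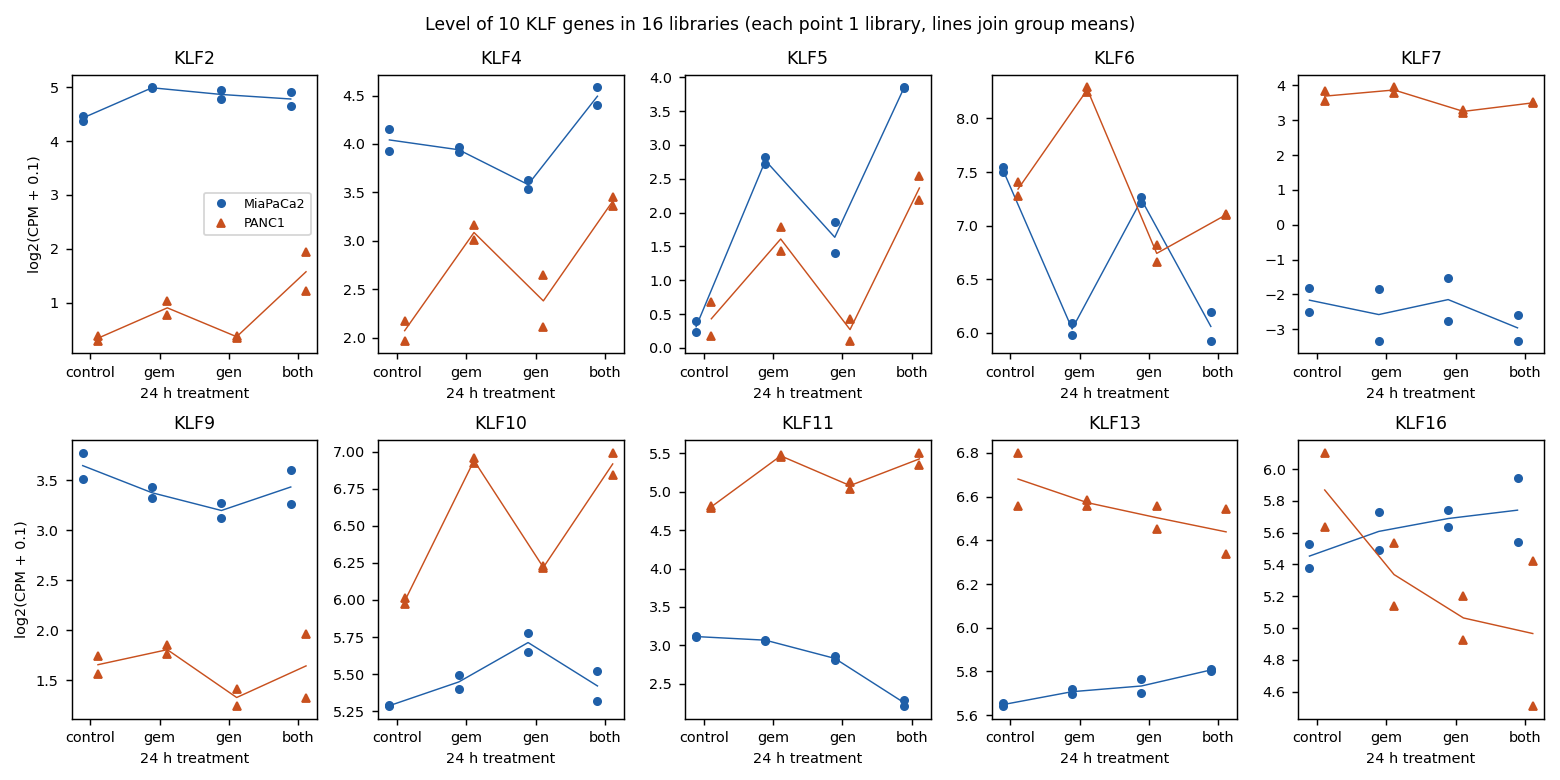
Level of each KLF gene as log2(CPM + 0.1), with 1 point per library, in MiaPaCa2 (circles) and PANC1 (triangles) by treatment (gem, gemcitabine; gen, genistein), with lines joining group means and a vertical scale of its own in each panel. The KLF6 lines cross, with gemcitabine at 68.1 and 63.0 CPM in MiaPaCa2 and at 304 and 313 in PANC1, while KLF5 is higher with gemcitabine than in the controls in both lines.

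With gemcitabine, the leading KLF6 transcripts moved with the gene, and the coding transcript ENST00000469435 did so in MiaPaCa2 but not in PANC1. Per the deposited isoform values, the coding transcript ENST00000497571, with 4590 exon bases, had 28.8 and 27.3 FPKM in the MiaPaCa2 controls and 10.5 and 10.2 with gemcitabine. In PANC1 it had 22.7 and 27.4 FPKM in the controls and 50.9 and 55.9 with gemcitabine. The 925-base transcript ENST00000173785, annotated without a defined coding sequence, had 11.7 and 16.8 FPKM in the MiaPaCa2 controls against 9.75 and 4.01 with gemcitabine, and 11.9 and 13.1 in the PANC1 controls against 41.7 and 29.6. ENST00000469435, with 2169 exon bases, had 2.63 and 1.96 FPKM in the MiaPaCa2 controls against 0.949 and 0.679 with gemcitabine, and 2.69 and 2.85 in the PANC1 controls against 2.80 and 2.76, which lay within the control range. The 432-base transcript ENST00000492125 had 6.79 and 3.63 FPKM against 0.973 and 0.791 in MiaPaCa2, and 5.46 and 4.81 against 6.76 and 6.05 in PANC1. Under the other treatments, not every transcript followed the gene. With both drugs in PANC1, ENST00000173785 was above its controls, at 19.5 and 20.5 FPKM, and ENST00000492125 below them, at 0.438 and 1.45. With genistein in MiaPaCa2, ENST00000173785 had 17.1 and 17.4 FPKM, above both controls. The coding transcript ENST00000497571 made up 46.8% to 65.1% of the gene's FPKM in 15 libraries and 35.0% in replicate I of PANC1 with genistein. In that library the coding transcript ENST00000542957, with 4537 exon bases, was given 5.30 FPKM, and in replicate II it was given 1.47. How reads were split between these 2 transcripts is uncertain in both replicates and was not tested.

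Over the 16 libraries, the genes most like KLF6 were ZNF207, PRPF38B, BRIX1, GTPBP4 and SRSF7. The measure was Pearson's r of log2 CPM after the mean of each line's controls was subtracted, over 15232 genes, and libraries of a group share their treatment, so it is given as a description. ZNF207 had an r of 0.960, PRPF38B of 0.948, BRIX1 of 0.938, GTPBP4 of 0.930 and SRSF7 of 0.929. ZNF207 encodes a spindle assembly factor, PRPF38B and SRSF7 encode splicing factors, and BRIX1 and GTPBP4 encode factors of ribosome assembly. The 5 were picked by r over these same libraries, so a direction shared with KLF6 follows from the choice. All 5 had lower group means than the controls with gemcitabine in MiaPaCa2 and higher ones in PANC1, with smaller differences than KLF6: for ZNF207 the log2 differences were -0.58 and 0.29, against -1.48 and 0.93 for KLF6 on the same scale. Among the KLF genes, r ran from -0.61 for KLF5 to 0.66 for KLF11.

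KLF5 had the largest rise of the tested members, with gemcitabine in both lines and with genistein in MiaPaCa2. In MiaPaCa2, KLF5 had 1.22 and 1.07 CPM in the controls, 6.95 and 6.48 with gemcitabine, 2.55 and 3.54 with genistein and 14.3 and 14.2 with both drugs. The 4 groups did not overlap, and the combination was the highest. In PANC1, KLF5 had 1.504 and 1.03 CPM in the controls, 2.59 and 3.36 with gemcitabine, 1.25 and 0.978 with genistein and 5.69 and 4.47 with both drugs. There the genistein libraries overlapped the controls, and the combination was again the highest group.

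In MiaPaCa2, KLF5 rose 5.498-fold with gemcitabine (log2 fold change 2.46, SE 0.279, adjusted p = 4.48e-05, limma-voom with Benjamini-Hochberg adjustment), 2.63-fold with genistein (adjusted p = 0.0130) and 11.6-fold with both (log2 fold change 3.54, SE 0.270, adjusted p = 7.78e-07). Adding genistein to gemcitabine raised it further by 1.08 on the log2 scale (SE 0.160, adjusted p = 0.00236), and adding gemcitabine to genistein raised it by 2.14 (SE 0.193, adjusted p = 6.05e-06). In PANC1, KLF5 rose 2.50-fold with gemcitabine (log2 fold change 1.32, SE 0.282, adjusted p = 0.0305) and 4.16-fold with both drugs (log2 fold change 2.06, SE 0.272, adjusted p = 0.00262). Adding gemcitabine to genistein raised it by 2.13 (SE 0.328, adjusted p = 0.0115), whereas the step from gemcitabine to the combination, 0.74 (SE 0.242), did not pass (adjusted p = 0.267). The PANC1 response was smaller than the MiaPaCa2 response by 1.23 for gemcitabine (SE 0.386, adjusted p = 0.0485) and by 1.56 for both drugs (SE 0.372, adjusted p = 0.0126). KLF5 in the PANC1 controls rested on 30 and 33 counts, and its gemcitabine call there was lost when any 1 of the 4 libraries was left out, with log2 fold changes from 1.04 to 1.51. On log2(FPKM + 1), the KLF5 changes in PANC1 did not pass, at 1.18 with gemcitabine (SE 1.18, adjusted p = 0.589, limma-trend) and 1.35 with both drugs (SE 1.18, adjusted p = 0.476). The PANC1 step from genistein to the combination was lost without either genistein library, at 2.33 without replicate I and 1.97 without replicate II. In MiaPaCa2, the genistein rise was lost without either control, at 1.49 and 1.32 for replicates I and II, or without replicate II of genistein, at 1.10, and the step from gemcitabine to the combination without replicate II of gemcitabine, at 1.03.

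The FPKM of KLF5 was less steady between replicates than its counts. With both drugs in MiaPaCa2, replicates of 202 and 216 counts were given 33.5 and 21.0 FPKM, and with genistein in PANC1, replicates of 16 and 13 counts were given 10.3 and 0.239 FPKM. Most of this came from ENST00000464404, a transcript of 130 exon bases, which was given between 0 and 28.3 FPKM. Without it, the mean KLF5 level with genistein in MiaPaCa2 was 0.943 FPKM in place of 1.97, below the FPKM criterion, so the genistein call of KLF5 rests on that transcript. The changes of KLF5 above were computed on counts.

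**Figure D3:**
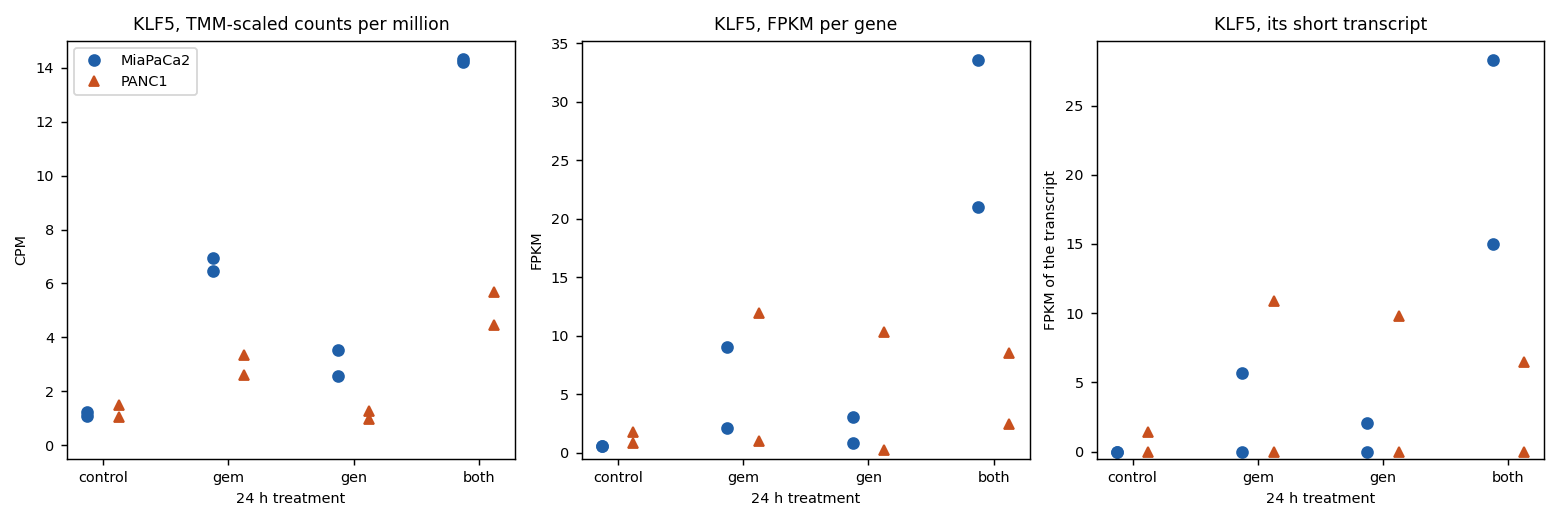
KLF5 by library, in MiaPaCa2 (circles) and PANC1 (triangles), as TMM-scaled CPM, as FPKM of the gene and as FPKM of its 130-base transcript, by treatment. The CPM of replicates lie close together (14.3 and 14.2 with both drugs in MiaPaCa2), while the gene FPKM (33.5 and 21.0) spread with the short transcript.

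KLF4 rose with gemcitabine in PANC1 and with the combination in both lines. In PANC1, KLF4 had 4.41 and 3.82 CPM in the controls, 8.85 and 7.95 with gemcitabine, 6.18 and 4.21 with genistein and 10.2 and 10.9 with both drugs. The gemcitabine and combination libraries were all above the controls, and 1 genistein library lay within the control range. KLF4 rose 2.11-fold with gemcitabine (log2 fold change 1.08, SE 0.197, adjusted p = 0.0188) and 2.62-fold with both drugs (log2 fold change 1.39, SE 0.196, adjusted p = 0.00331), and adding gemcitabine to genistein raised it by 1.03 (SE 0.209, adjusted p = 0.0271). In MiaPaCa2, KLF4 had 15.1 and 17.7 CPM in the controls, 15.5 and 15.0 with gemcitabine, 11.5 and 12.2 with genistein and 21.0 and 23.9 with both drugs. The genistein libraries were the lowest and the combination the highest of the line. The genistein change of -0.46 (SE 0.141) did not pass (adjusted p = 0.0526), and the combination rose 1.32-fold (log2 fold change 0.40, SE 0.131, adjusted p = 0.0209). Against either single drug, the combination was higher, by 0.55 over gemcitabine (SE 0.131, adjusted p = 0.0251) and by 0.87 over genistein (SE 0.136, adjusted p = 0.000332). The combination rise over control lay at the fold criterion: it fell below 0.4 with edgeR, without the filter and with the replicate block, at 0.397 to 0.399, and missed the adjusted p with DESeq2 (0.0542). It was also lost without replicate I of the controls, at 0.28, without replicate II of the combination, at 0.34, and under GC correction, at 0.04 (adjusted p = 0.761), with or without the block. The KLF4 response was larger in PANC1 by 1.14 for gemcitabine (SE 0.232, adjusted p = 0.00755) and by 0.91 for both drugs (SE 0.229, adjusted p = 0.0162). The PANC1 gemcitabine call was lost without either gemcitabine library, at log2 fold changes of 1.01 without replicate I and 1.15 without replicate II. The step from genistein to the combination was lost there without replicate I or II of genistein, at 1.32 and 0.76, or replicate II of the combination, at 0.99. In MiaPaCa2, the step from gemcitabine to the combination was lost without replicate I or II of gemcitabine, at 0.58 and 0.52, or replicate II of the combination, at 0.48.

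KLF2 rose modestly with each single drug in MiaPaCa2 and with the combination in PANC1, from a far lower level. In MiaPaCa2, KLF2 had 20.7 and 22.1 CPM in the controls, 31.9 and 31.4 with gemcitabine, 30.7 and 27.5 with genistein and 24.99 and 30.1 with both drugs. All treated libraries were above the controls. The rise was 1.43-fold with gemcitabine (log2 fold change 0.51, SE 0.122, adjusted p = 0.00565) and 1.34-fold with genistein (log2 fold change 0.42, SE 0.123, adjusted p = 0.0465), and the combination, at 0.30 (SE 0.125), did not pass (adjusted p = 0.0607). The gemcitabine call was lost without replicate I of the controls, at 0.46, and under GC correction, at 0.12 (adjusted p = 0.297), and the genistein call was lost without any 1 of its 4 libraries, at 0.37 to 0.49. In PANC1, KLF2 had 1.20 and 1.13 CPM in the controls, 1.94 and 1.61 with gemcitabine, 1.17 and 1.20 with genistein and 2.21 and 3.72 with both drugs. These levels rested on 15 to 65 counts per library. The gemcitabine change, 0.64 (SE 0.307), did not pass (adjusted p = 0.237, limma-voom). The combination rose 2.52-fold (log2 fold change 1.33, SE 0.293, adjusted p = 0.0175), a call lost without replicate II of the controls, at 1.288, or of the combination, at 0.96. The difference of the combination response between the lines, 0.96 (SE 0.317), did not pass (adjusted p = 0.0528).

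KLF7 could be tested only in PANC1, where none of its changes passed. It had 11.6 and 14.2 CPM in the controls, 13.7 and 15.3 with gemcitabine, 9.69 and 9.18 with genistein and 11.1 and 11.3 with both drugs. The genistein libraries were the lowest, at a log2 difference of -0.41 (SE 0.179, adjusted p = 0.265). In MiaPaCa2, 0 to 3 counts per library were too few for a test.

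Among the genes of the SIN3A-binding branch, KLF10 and KLF11 rose with gemcitabine and with the combination in PANC1. KLF10 had 64.4 and 62.6 CPM in the PANC1 controls, 121 and 124 with gemcitabine, 74.7 and 74.1 with genistein and 127.4 and 114.4 with both drugs. All treated libraries were above the controls, and those with gemcitabine, alone or combined, were the highest. KLF10 rose 1.99-fold with gemcitabine (log2 fold change 0.99, SE 0.101, adjusted p = 0.00283) and 1.93-fold with both drugs (log2 fold change 0.95, SE 0.103, adjusted p = 0.00142), and adding gemcitabine to genistein raised it by 0.68 (SE 0.110, adjusted p = 0.0131). In MiaPaCa2, KLF10 had 38.9 and 39.0 CPM in the controls, 42.2 and 44.9 with gemcitabine, 54.7 and 50.1 with genistein and 45.9 and 39.8 with both drugs. There the genistein libraries were the highest, 1.32-fold above the controls (log2 fold change 0.41, SE 0.110, adjusted p = 0.0332), a call lost without any 1 of the 4 libraries, at 0.36 to 0.46. The PANC1 response was larger by 0.79 for gemcitabine (SE 0.139, adjusted p = 0.00346) and by 0.79 for both drugs (SE 0.141, adjusted p = 0.00222). In PANC1, the gemcitabine call of KLF10 was lost without replicate II of gemcitabine, at 0.97 with an adjusted p of 0.0569, and the step from genistein to the combination without replicate I or II of genistein, at 0.71 and 0.69.

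KLF11 moved in opposite directions in the lines with the combination. In PANC1, KLF11 had 27.6 and 28.0 CPM in the controls, 43.5 and 44.6 with gemcitabine, 34.9 and 32.5 with genistein and 45.4 and 40.4 with both drugs. In MiaPaCa2, it had 8.63 and 8.50 CPM in the controls, 8.34 and 8.24 with gemcitabine, 7.15 and 6.89 with genistein and 4.54 and 4.81 with both drugs. Every treated library was above the controls in PANC1 and below them in MiaPaCa2, but the single-drug changes in MiaPaCa2 did not pass. They were -0.10 with gemcitabine (adjusted p = 0.618, limma-voom) and -0.31 with genistein (adjusted p = 0.220). Of all genes tested in MiaPaCa2, 74% and 60% were apart from the controls with these drugs. The genistein change in PANC1, 0.31, did not pass either (adjusted p = 0.257). In PANC1 the log2 fold change was 0.71 with gemcitabine (SE 0.124, adjusted p = 0.0170) and 0.64 with both drugs (SE 0.127, adjusted p = 0.0119). In MiaPaCa2, KLF11 fell with both drugs by 0.93 on the log2 scale (SE 0.169, adjusted p = 0.000564), but its mean of 0.996 FPKM was below the FPKM criterion, so it is not among the called genes. It was also lower with the combination than with gemcitabine, by -0.83 (SE 0.168, adjusted p = 0.0115), and than with genistein, by -0.62 (SE 0.171, adjusted p = 0.0113). The difference of the responses, PANC1 minus MiaPaCa2, was 0.71 for gemcitabine (SE 0.165, adjusted p = 0.0140) and 1.49 for both drugs (SE 0.180, adjusted p = 0.000165). The PANC1 calls were lost without replicate I or II of gemcitabine, at 0.73 and 0.68, and without replicate I of the combination, at 0.55. In MiaPaCa2, the difference from gemcitabine was lost without replicate I or II of gemcitabine, at -0.81 and -0.84, and that from genistein without replicate II of genistein, at -0.65, or of the combination, at -0.63. The difference in the gemcitabine response was lost without any 1 of the 4 MiaPaCa2 libraries compared, at adjusted p from 0.0529 to 0.0612.

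KLF9, KLF13 and KLF16 were not called with any treatment in either line. KLF9 had 8.64 to 13.6 CPM over the 8 MiaPaCa2 libraries and 2.27 to 3.79 in PANC1, and its largest change was -0.49 with genistein in MiaPaCa2 (SE 0.169, adjusted p = 0.0812). KLF13 was the steadiest member, with 49.9 to 56.0 CPM in MiaPaCa2 and 80.7 to 111.5 in PANC1. Its log2 fold changes against control lay between -0.21 and 0.10. KLF16 had 68.7 and 49.5 CPM in the PANC1 controls, 46.3 and 35.1 with gemcitabine, 36.7 and 30.3 with genistein and 22.7 and 42.7 with both drugs. All treated libraries of PANC1 were below both controls, but the replicates spread widely and the changes did not pass (with both drugs -0.85, SE 0.277, adjusted p = 0.0672). In MiaPaCa2, KLF16 had 41.5 to 61.4 CPM. The response of KLF16 to both drugs differed between the lines by -1.17 (SE 0.356, adjusted p = 0.0378), a difference lost without replicate I of the PANC1 combination, at -0.67, without replicate I of the PANC1 controls, at -0.92, without either MiaPaCa2 control, at -1.05 and -1.24, and without replicate II of the MiaPaCa2 combination, at -0.97.

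**Figure D4:**
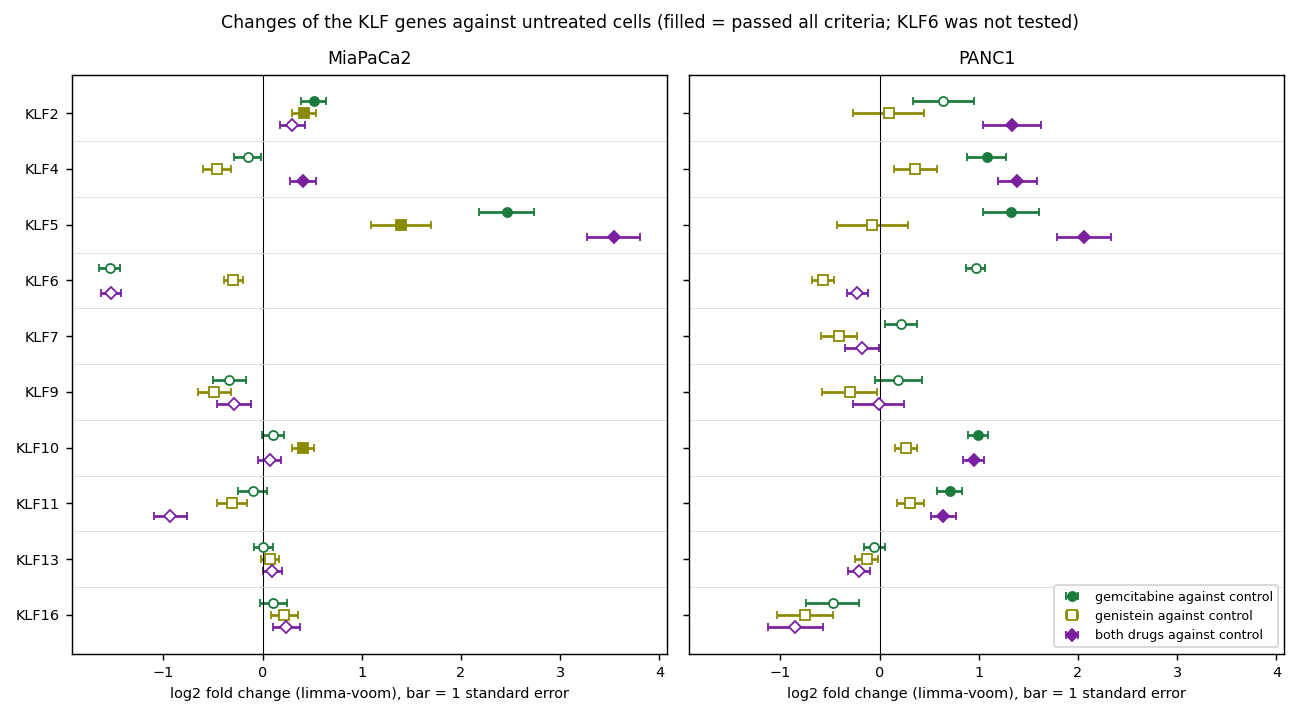
Log2 fold changes against control with 1 standard error for gemcitabine (circles), genistein (squares) and both drugs (diamonds), in MiaPaCa2 at the left and PANC1 at the right, filled where all criteria for a call were met. KLF5 lies furthest to the right in both lines, at 3.54 and 2.06 with both drugs, and KLF6, which was not tested, lies on opposite sides of 0 with gemcitabine, at -1.54 and 0.97.

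Called members were counted beside all genes called in the same comparison, out of 16064 genes tested in MiaPaCa2 and 16909 in PANC1. With gemcitabine, 2 of 8 members were called in MiaPaCa2, where 29.5% of all genes tested were called, and 4 of 9 in PANC1, where 7.52% were. With both drugs, 2 of 8 were called in MiaPaCa2 against 40.5% of all genes, and 5 of 9 in PANC1 against 17.1%. With genistein, 3 of 8 were called in MiaPaCa2 against 8.3% of all genes, and 0 of 9 in PANC1 against 0.0591%. Every called change against control was a rise, but the criteria did not treat both directions alike. FPKM had to pass in the treated group alone, which can keep a rise from a low level and drop a fall to one. The fall of KLF11 with both drugs in MiaPaCa2 was dropped in this way. KLF6, which moved in both directions, was not tested or counted. For genistein in PANC1, limma-voom, edgeR and DESeq2 each called 0 members, where they called 10, 12 and 738 of all 16909 genes. KLF10, KLF11 and KLF16 had an unadjusted limma-voom p under 0.05. The share of all genes under that unadjusted threshold was not taken, here or below, so these members have no background to be set against. The median log2 fold change of the tested members was 0.64 with gemcitabine in PANC1, where the median of all genes was 0.03, and 0.06 in MiaPaCa2, where it was -0.01.

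The combination was also set against each single drug. Adding gemcitabine to genistein, 2 of 8 members were called in MiaPaCa2 against 31.5% of all genes, and 3 of 9 in PANC1 against 8.18%. Adding genistein to gemcitabine, 2 of 8 were called in MiaPaCa2 against 5.88%, and 0 of 9 in PANC1 against 0.0177%. In the latter, edgeR and DESeq2 also called 0 members, where they called 3 and 208 of all 16909 genes. KLF2 and KLF5 had an unadjusted limma-voom p under 0.05 there, again without a share of all genes. The treated groups share their control and combination libraries, so these comparisons are not independent of each other.

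The responses of 4 of the 9 members differed between the lines for gemcitabine, where 15.3% of all genes differed, and of 5 of 9 for both drugs, where 18.1% did. They were KLF4, KLF5, KLF10 and KLF11 for gemcitabine, with KLF16 added for both drugs. For genistein, 0 of 9 differed by limma-voom, edgeR or DESeq2, where 0.0336% of all genes did by limma-voom. By edgeR and DESeq2, 19 and 186 of all 17863 genes did. KLF4, KLF5, KLF11 and KLF16 had an unadjusted limma-voom p under 0.05, a threshold for which no share of all genes was taken. The KLF5 difference for gemcitabine, -1.23, was lost without any 1 of 7 of the 8 libraries compared, at -0.97 to -1.40; it was kept without replicate II of the PANC1 controls. Its difference for both drugs was lost without either MiaPaCa2 control, at -1.61 without replicate I and -1.48 without replicate II, and without replicate I of the PANC1 controls, at -1.295. The KLF4 difference for both drugs was lost without replicate II of the MiaPaCa2 controls, at 0.80.

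Of the 7 other KLF genes, KLF3 and KLF15 were called. KLF3, a repressor that binds CTBP, had 42.4 and 38.8 CPM in the MiaPaCa2 controls, 27.7 and 24.5 with gemcitabine, 38.1 and 34.0 with genistein and 24.1 and 21.1 with both drugs. It fell by 0.69 with gemcitabine (SE 0.122, adjusted p = 0.000886) and by 0.91 with both drugs (SE 0.126, adjusted p = 7.6e-05), both on the log2 scale. In PANC1, KLF3 had 16.9 and 20.8 CPM in the controls and 23.4 and 25.2 with gemcitabine, a change of 0.41 (SE 0.205) that did not pass (adjusted p = 0.258). The KLF3 response differed between the lines by 1.001 for gemcitabine (SE 0.225, adjusted p = 0.0120). KLF15, which regulates gluconeogenesis and amino acid metabolism, rose in MiaPaCa2 with both drugs, from 49 and 52 counts to 94 and 141 (log2 fold change 1.15, SE 0.248, adjusted p = 0.00183), and it had 2 and 0 counts in the PANC1 controls. KLF1, KLF8 and KLF17 had at most 10 counts in any library, KLF14 at most 31 and KLF12 12 to 240.

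The SP genes encode the zinc finger factors closest to the KLF family, which bind the same GC boxes. With both drugs in MiaPaCa2, 2 of the 5 SP genes tested fell, where 40.5% of all genes were called, SP3 by 1.46 (SE 0.146, adjusted p = 5.72e-06) and SP1 by 1.19 (SE 0.102, adjusted p = 1.84e-06), both on the log2 scale. SP6 was higher by 2.43 (SE 0.412, adjusted p = 0.00034), but its mean of 0.572 FPKM was below the FPKM criterion. In PANC1, where 17.1% of all genes were called with both drugs, SP6 rose by 1.48 (SE 0.233, adjusted p = 0.00508) and SP1 fell by 0.48 (SE 0.0899, adjusted p = 0.00994) on the log2 scale. With both drugs in MiaPaCa2, 10 of 17 listed cofactors and turnover factors of KLF proteins fell and 0 rose, with a list median of -0.57 against -0.01 for all genes tested. Those with the largest falls were CTBP2, a corepressor, at -1.26 (SE 0.0999, adjusted p = 1.04e-06), ATXN3, a deubiquitinase, at -1.20 (SE 0.176), EP300, the acetyltransferase p300, at -0.92 (SE 0.104), and ITCH, a ubiquitin ligase, at -0.80 (SE 0.129). In PANC1 with both drugs, 3 of 17 fell and 0 rose, with a list median of -0.35 against 0.01. The called shares, 10 of 17 and 3 of 17, stand beside the 40.5% and 17.1% of all genes called.

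Of 12 upstream genes, which encode the kinases and MEF2 and FOXO factors known to act on KLF2 and KLF4, 11 were tested in MiaPaCa2, and with both drugs 5 rose and 2 fell, where 40.5% of all genes were called. FOXO1 rose by 0.73 (SE 0.173, adjusted p = 0.00333), MAP3K3 by 0.62 (SE 0.102) and MEF2D by 0.58 (SE 0.101), and MAP3K2 fell by 0.53 (SE 0.159), all on the log2 scale. Of 28 genes listed as KLF targets in other systems, 26 were tested between the untreated lines, where 11 were higher and 2 lower in PANC1, with a median of 0.31 against 0.06 for all genes, and 52.2% of all genes were called. The TGF-β receptor gene TGFBR2 was higher by 7.13 (SE 0.319, adjusted p = 6.99e-10), PPARG by 5.17 (SE 0.198), the cell cycle inhibitor gene CDKN1A by 4.41 (SE 0.224) and SMAD7, an inhibitor of TGF-β signaling, by 3.56 (SE 0.204). With both drugs in MiaPaCa2, 7 of 25 listed targets rose and 5 fell, and in PANC1 3 of 24 rose and 4 fell, with list medians of 0.29 and -0.20, where 40.5% and 17.1% of all genes were called.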

How the data were processed

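Poly-A RNA of 16 cultures was sequenced as stranded libraries. The authors deposited counts per gene, unnormalized whole numbers, and FPKM per gene and per isoform. Per the submitters' processing notes and the study's methods, reads were aligned to GRCh37 with TopHat2 2.0.4, reads with several alignments were taken out with Picard 1.29, and HTSeq 0.6.1 gave the counts and Cufflinks 2.1.1 the FPKM. The annotation release and strand setting are not given in the sources used here, and a wrong strand setting or shared transcripts could shift single genes.

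Groups came from the sample labels. Counts were tested with limma-voom (limma 3.58.1, edgeR 4.0.16, R 4.3.3) after TMM scaling and edgeR's filterByExpr. The 8 libraries of a line shared 1 model, and the 16 libraries shared 1 model for comparisons between lines. P-values were two-sided, adjusted by Benjamini-Hochberg over all genes tested. Response differences between lines were judged on the adjusted p alone. The study's methods call the replicates biological, without saying whether cultures were grown separately, so p-values measure the spread between these libraries. All replicate pairs differed beyond sampling noise (chi-square per degree of freedom 2.699 to 32.03). For 128 identifiers with several FPKM rows the first was used. The procedure was tested on simulated data.

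The members and lists were chosen with earlier results of these data known. Named were the 10 members, up to 4 called genes of each other list by absolute log2 fold change in the comparison with most calls, the 5 genes most like KLF6, and the cell markers. Alternatives were edgeR's quasi-likelihood test, DESeq2 1.42.0 (test and size factors), library size alone, no filter, a replicate block, GC correction (GENCODE v44 lifted to GRCh37, values for 97.9% of 17863 genes), limma-trend on log2(FPKM + 1) or log2(FPKM + 0.1), only the libraries compared, no FPKM or fold criterion, and each library left out. Models of 4 libraries with same-numbered or crossed pairs, and KLF5 without its short transcript, were chosen after seeing the data.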

Additional observations from a re-analysis of the deposited data

Results flagged for a closer look

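The responses of several KLF genes differed between the lines by the test of the difference itself, each given as PANC1 minus MiaPaCa2 on the log2 scale. For gemcitabine, the differences were 1.14 for KLF4, -1.23 for KLF5, 0.79 for KLF10, 0.71 for KLF11 and 1.0 for KLF3. Over 11 other processing choices, the KLF5 difference lost the threshold in 6, with values from -1.30 to -0.64. That of KLF4 lost it in 2, and those of KLF10 and KLF11 kept it in all 11. For both drugs, the differences were 0.91 for KLF4, -1.56 for KLF5, 0.79 for KLF10, 1.49 for KLF11, -1.17 for KLF16 and 0.83 for KLF3, where the adjusted p of KLF3 was 0.027 (limma-voom). Over the same 11 choices, the KLF16 difference lost the threshold in 4, with values from -1.18 to -0.41. That of KLF5 lost it in 3 and that of KLF4 in 1, while KLF10 and KLF11 kept it. KLF3 was not followed over these choices. For KLF6, every MiaPaCa2 gemcitabine library was below the controls and every PANC1 gemcitabine library above them, with a difference of 2.41; this difference was not tested, because KLF6 was picked for it.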

How the results depend on the processing

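Of 43 member values with an adjusted p of at most 0.05, 812 alternative values were computed: 672 kept direction and threshold, 140 lost the threshold and 0 reversed. Of 249 alternative KLF6 responses, 7 changed sign, all of responses under 0.4 in size: genistein added to gemcitabine in MiaPaCa2 (0.01, from -0.13 to 0.18) and both drugs in PANC1 (-0.22, up to 0.0037). The cause of changed counts was not tested. Called members changed as follows. For both drugs in MiaPaCa2 (2), edgeR, DESeq2, no filter, the replicate block and GC correction with or without the block gave 1, without KLF4. For genistein in MiaPaCa2 (3), no filter and the replicate block gave 1, FPKM with either pseudocount 0, and only the libraries compared 5. For genistein added to gemcitabine in MiaPaCa2 (2), no filter gave 1 and FPKM with either pseudocount 0. For gemcitabine in MiaPaCa2 (2), log2(FPKM + 1) gave 1. For gemcitabine added to genistein in MiaPaCa2 (2), GC correction with or without the block gave 5. In PANC1, for gemcitabine (4), the replicate block, FPKM with either pseudocount and only the libraries compared gave 2. For both drugs (5), FPKM with either pseudocount and only the libraries compared gave 3. GC correction gave 1 for genistein (0), with or without the block, 2 for genistein added to gemcitabine (0), without the block, and 5 for gemcitabine added to genistein (3), with or without the block. Between the untreated lines (7), GC correction gave 9, or 8 with the block. For response differences, FPKM with either pseudocount gave 2 for gemcitabine (4) and 3 for both drugs (5), only the libraries compared gave 2 for both drugs, and GC correction gave 2 for genistein (0), or 1 with the block. Leaving out 1 library gave 1 to 2 for gemcitabine, 0 to 1 for genistein, 1 to 5 for both drugs, 0 to 2 for added genistein and 2 to 3 for added gemcitabine in MiaPaCa2. In PANC1 it gave 0 to 3 for gemcitabine, 0 for genistein, 4 to 5 for both drugs, 0 for added genistein and 0 to 4 for added gemcitabine. It gave 7 to 8 between the untreated lines, and for response differences 2 to 4 for gemcitabine, 0 for genistein and 2 to 6 for both drugs. Replicate numbers did not pair the samples: correlations of same-numbered deviations ran from -0.66 to 0.44, and the replicate block moved the called genes of gemcitabine in PANC1 from 1272 to 442. In models of 4 libraries, crossed pairs called 5 members for genistein in MiaPaCa2 and 1 for added genistein in PANC1, and same-numbered pairs called 1 for added genistein in MiaPaCa2 and 2 for both drugs in PANC1. Over all genes, GC correction moved the calls for genistein from 10 to 1223 and for gemcitabine from 1272 to 3120 in PANC1, DESeq2 gave 738 for genistein there, and only the libraries compared gave 574 for both drugs in place of 2897. KLF5 in PANC1 rested on 13 to 90 counts per library.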
